A study of Homo sapiens with 4 samples.

Results

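Collagens, laminins and integrins build the extracellular matrix and attach cells to it. Their genes were taken as every protein-coding symbol made of COL, a number, A and a number, of LAMA, LAMB or LAMC with a number, or of ITGA or ITGB with its subunit number or letter. This gave 82 genes: 44 for collagen chains, 12 for laminin chains and 26 for integrin subunits. Of these, 61 are among the 17010 genes listed for the vector pair of libraries and 70 among the 16856 used for the siRNA pair. Measured below means a mean of at least 20 scaled counts over a pair of libraries. That held for 39 members with vector and JFK, for 38 with the siRNAs and for 40 in at least 1 pair. A further 32 members were listed below that level, the highest at 19.35 counts, and 10 were not listed.

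RNA sequencing was done on 4 libraries, 1 per group, from cells labelled HepG2, a human liver tumour line. One pair compares an empty vector with a plasmid for FLAG-tagged JFK, an alias of the F-box protein gene FBXO42, and the other compares a control siRNA with an siRNA against ING5, a subunit of histone acetyltransferase complexes. The labels used here give neither the plasmid's promoter, nor the time after transfection, nor the siRNA sequences. Each group being 1 library, nothing was checked against replicates and no p-value is given. Every interval below is an exact 95% Clopper-Pearson interval of a ratio of 2 counts, which covers counting error only.

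A collagen molecule winds 3 alpha chains into a triple helix whose repeated glycine fits the core, and the chains are hydroxylated and chaperoned in the endoplasmic reticulum before secretion. Fibrillar types form cables, type IV forms the sheet of basement membranes, and fibril-associated types decorate cables. A laminin is a cross-shaped trimer of an alpha, a beta and a gamma chain that organises the basement membrane under epithelia. An integrin is a membrane heterodimer of an alpha and a beta subunit. The alpha subunit largely sets whether it binds laminin, collagen or the RGD motif of fibronectin and vitronectin, and the beta tail recruits talin and kindlin to link to actin.

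Library totals ran from 7179585 to 9196979 counts. A count of 0 allows up to 3 counts, or 0.326 to 0.418 CPM (counts scaled to the library total). ING5 stood at 81 counts under its siRNA against 144 in the control (log2 ratio −0.81, interval −1.23 to −0.41). FBXO42 stood at 115 counts with the JFK plasmid against 116 in vector (0.01, interval −0.37 to 0.40). Its transcript thus goes against the label, so that library is called the library labelled JFK, and no direction seen in it can be tied to higher FBXO42. Of 16 hepatocyte marker genes 2 had at least 20 counts in each library (CPS1 and HNF4A), and 10 had at most 3 counts in all 4, among them the albumin gene ALB, which was not listed. CPS1 was abundant, but these 10 low markers go against the label of a liver line. What the cells are was not tested, so HepG2 is given here as a label only. Of 11 fibroblast and stellate markers 4 reached 20 counts with vector or JFK and 8 with either siRNA. Their summed level went the other way, at 1071 and 1236 CPM with vector and JFK and 438.5 and 397 CPM with control and ING5 siRNA. Most of each sum came from FBLN1. In bulk RNA, fewer cells of a type and less RNA per cell cannot be told apart.

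Members took 0.681% of all counts in vector, against 0.732% in the library labelled JFK. The share was 0.748% in control siRNA and 0.862% under ING5 siRNA. Levels between genes are compared here on the deposited values per length, which are FPKM for vector and JFK and RPKM for the siRNAs. ITGB1, the beta subunit shared by most laminin, collagen and fibronectin receptors, was the highest member in every library. Its FPKM was 213.2 in vector, against 182.59 with the JFK label. It stood at an RPKM of 458 in control siRNA and 518 under ING5 siRNA. By this measure it was 313th of all genes in vector and 101st in control siRNA. ITGA5, which pairs with ITGB1 as the fibronectin receptor, came second in the vector pair, at an FPKM of 132.53 and 157.55, and stood at an RPKM of 53.8 and 84.8 in the siRNA pair.

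**Figure D1:**
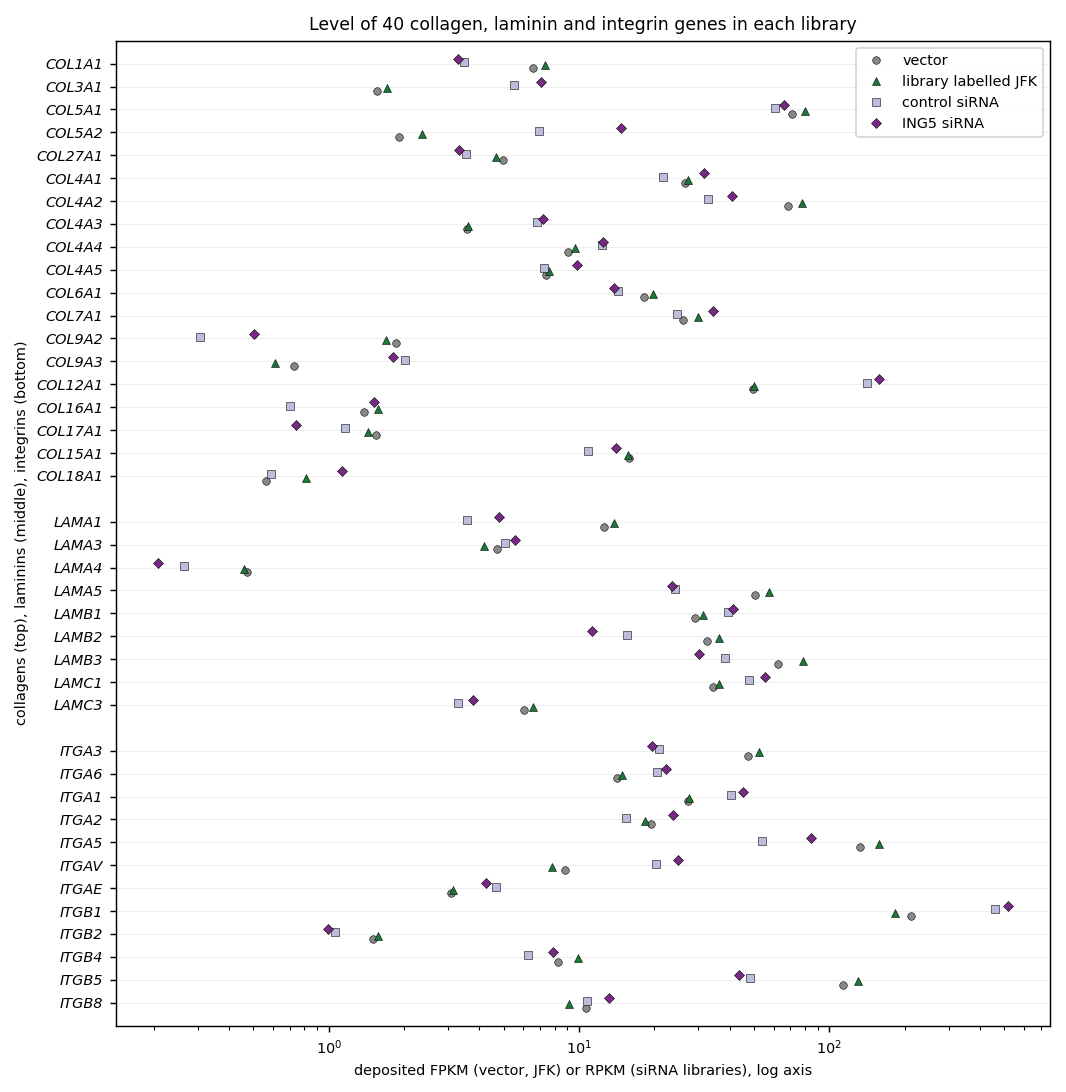
Deposited FPKM (vector and library labelled JFK) or RPKM (control siRNA and ING5 siRNA) on a log axis for the 40 members measured in at least 1 pair, 1 point per library. ITGB1 lies farthest right in every library, and COL12A1 stands at 49.4 and 49.9 with vector and JFK and at 141 and 158 with the siRNAs.

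Other integrin subunits lay lower. ITGB5, a vitronectin receptor beta subunit, had an FPKM of 113.51 in vector and an RPKM of 48.3 in control siRNA, while ITGAV, the alpha subunit that ITGB5 pairs with, had 8.77 and 20.4. The ratio of ITGB5 to ITGAV was therefore 12.9 in vector and 2.37 in control siRNA. Vector and control siRNA differ from each other with GC content, as given below for CPM, and ITGB5 has a GC content of 54.3% against 38.3% for ITGAV. The part of GC content in this contrast, and in those of chain ratios between the pairs below, was not tested. The laminin receptor alpha subunits ITGA3 and ITGA6 stood at an FPKM of 47.28 and 14.24 in vector and an RPKM of 21.0 and 20.4 in control siRNA. The collagen receptor subunits ITGA1 and ITGA2 stood at 27.31 and 19.4 in vector and at 40.4 and 15.4 in control siRNA. Beta subunits other than ITGB1 and ITGB5 were lower, with ITGB8 at 10.67 and 10.7, ITGB4, the hemidesmosome subunit, at 8.27 and 6.24, and ITGB2, the leukocyte subunit, at 1.51 and 1.06. ITGB3, ITGB6 and ITGB7 had at most 9 counts in any library.

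Laminin chains that can join in a trimer were unequal. LAMB3, a beta chain of epithelial basement membranes, stood at an FPKM of 62.62 in vector, and LAMA3, an alpha chain it can join, at 4.72. LAMB3 was 13.3 times LAMA3 per length in vector, 18.8 times with the JFK label, 7.57 times in control siRNA and 5.47 times under ING5 siRNA. The chains of the common adult basement membrane trimer lay closer together: in control siRNA LAMA5 had an RPKM of 24.2, LAMB1 39.3 and LAMC1 47.8. LAMA1, the embryonic alpha chain, had 12.61 in vector and 3.58 in control siRNA.

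**Figure D2:**
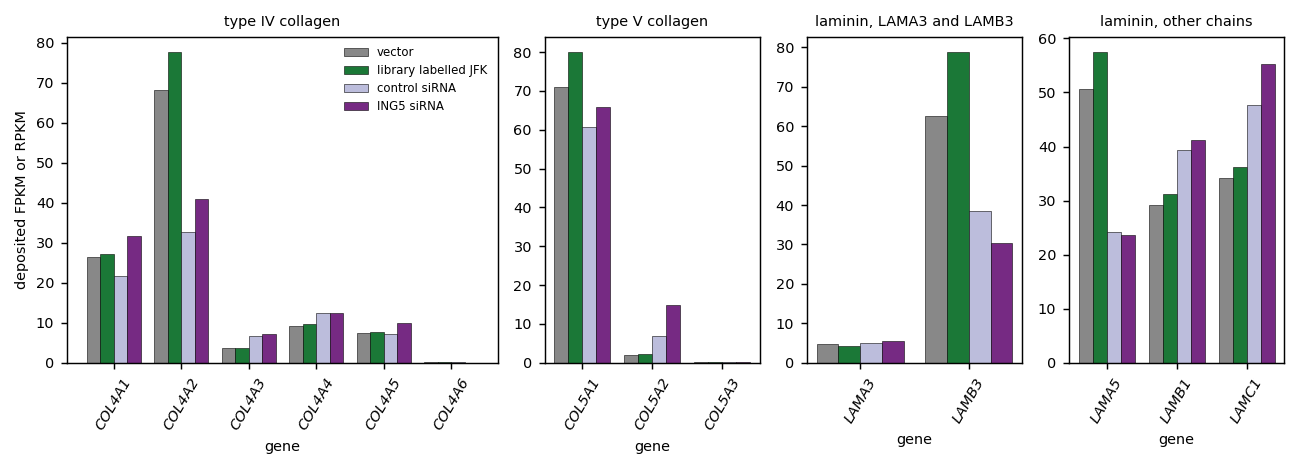
Deposited FPKM (vector pair) or RPKM (siRNA pair) of the chains of type IV and type V collagen and of the laminin chains LAMA3 and LAMB3, and LAMA5, LAMB1 and LAMC1, 1 bar per library. LAMB3 stands far above LAMA3 in every library, and COL5A2 reaches 14.8 under ING5 siRNA against 6.90 in control siRNA.

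Collagen chains showed the same kind of imbalance. COL5A1, a type V chain that starts and limits fibrils, had an FPKM of 70.9 in vector and its partner COL5A2 had 1.91, a ratio of 37.1, against 8.78 in control siRNA and 4.45 under ING5 siRNA. Their GC contents are 60.3% and 47.9%, so the limit given for ITGB5 and ITGAV holds here too between vector and control siRNA. COL1A1 had 177 to 320 counts, yet COL1A2, with which it makes type I collagen, was not listed in the vector pair and had 2 counts in control siRNA and 0 under ING5 siRNA. COL6A1 had 534 to 615 counts, while COL6A2 had at most 2, listed in the vector tables, and COL6A3 at most 1, listed in the siRNA tables. Among type IV chains COL4A2 led, with an FPKM of 68.14 in vector against 26.43 for COL4A1, 9.08 for COL4A4, 7.4 for COL4A5 and 3.58 for COL4A3. COL4A6 had 3 to 7 counts. COL12A1, a fibril-associated chain, was the member most reads came from after ITGB1 in the siRNA pair, with 15056 and 16678 counts.

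Under ING5 siRNA, set against control siRNA to ask which transcripts differ with less ING5, 5 of 38 measured members stood higher by 1.5-fold or more, and 1 stood lower by that much. Over all 11634 measured genes the shares were 4.01% higher and 4.4% lower, and for the members 13.2% and 2.63%. The 5 were COL5A2, COL16A1, COL18A1, ITGA5 and ITGA2, and the lower one was COL17A1. The members' median log2 ratio was 0.16, against −0.01 for all genes, and 26 of 38 (68.4%) lay above 0, against 48.6%. Intervals lay wholly above 0 for 21 members (55.3%) and wholly below for 4 (10.5%), against 18.3% and 20.6% of all genes. Members also had more reads, with a median of 827 scaled counts against 320, so their intervals are narrower.

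Of 5 measured fibrillar collagens 3 lay above 0 and 2 below, with a median of 0.12. COL5A2 had 440 counts in control siRNA and 933 under ING5 siRNA, a log2 ratio of 1.10 (interval 0.94 to 1.27). Its partner COL5A1 had 4707 and 5055 counts, a log2 ratio of 0.12 (0.06 to 0.18). The COL5A2 library values thus lay about 2.14-fold apart and those of COL5A1 1.09-fold. COL3A1, the chain of reticular fibres, had 278 and 352 counts (0.36, interval 0.13 to 0.59). COL1A1, with 190 and 177 counts, and COL27A1, with 182 and 168, had intervals that include 0.

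All 5 measured type IV chains lay above 0, 3 of them with intervals wholly above it. In the genome these genes stand head to head in 3 pairs, each sharing the stretch between their starts. COL4A1 had 1309 counts in control siRNA and 1888 under ING5 siRNA (log2 ratio 0.54, interval 0.44 to 0.65), and COL4A2 had 1883 and 2331 (0.32, interval 0.24 to 0.41), so both of this pair were higher, COL4A1 by more. COL4A3, with 506 and 533 counts, and COL4A4, with 1178 and 1170, the pair of the kidney and lung membrane, lay at 0.09 and 0.01 with intervals that include 0. COL4A5 had 438 and 587 counts (0.44, interval 0.26 to 0.62), while COL4A6, its head-to-head neighbour, had 6 and 3.

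The stretch between the COL4A1 and COL4A2 starts is shown because both transcripts of the pair were higher together, and those upstream of ITGA5 and ITGA2 because these were the integrin genes at least 1.5-fold higher. They are RefSeq sequences of GRCh38.p14, a later build than that of the tables, and 58 of the 82 members have an entry in the promoter table, COL5A2 not among them. The COL4A1-COL4A2 stretch is the 126 bases at chr13:110307158-110307283, read on the plus strand toward COL4A2. The others are the 250 bases before the start of ITGA5, chr12:54419267-54419516 on the minus strand, and of ITGA2, chr5:52989102-52989351 on the plus strand. Capitals mark CCAAT and GGGCGG (a GC box) on either strand, so CCGCCC is a GC box read on the other strand, and the motifs share no letters.
COL4A1-COL4A2: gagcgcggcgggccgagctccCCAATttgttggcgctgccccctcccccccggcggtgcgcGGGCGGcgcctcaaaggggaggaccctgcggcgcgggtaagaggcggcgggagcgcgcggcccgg
ITGA5: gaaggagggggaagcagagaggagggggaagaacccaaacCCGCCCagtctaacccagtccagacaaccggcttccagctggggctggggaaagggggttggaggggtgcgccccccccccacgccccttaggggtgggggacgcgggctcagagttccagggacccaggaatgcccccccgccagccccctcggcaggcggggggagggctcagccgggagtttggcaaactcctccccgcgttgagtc
ITGA2: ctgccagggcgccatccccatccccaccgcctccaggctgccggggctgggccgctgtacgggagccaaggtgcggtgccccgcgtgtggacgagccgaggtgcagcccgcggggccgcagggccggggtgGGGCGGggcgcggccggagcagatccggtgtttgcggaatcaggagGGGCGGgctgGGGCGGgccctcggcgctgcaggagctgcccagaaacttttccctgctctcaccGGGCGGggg

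The COL4A1-COL4A2 stretch holds 1 CCAAT and 1 GC box, and 80.2% of its bases are G or C. Among the last 126 bases before 35116 RefSeq starts, 21.1% hold CCAAT and 34.6% the GC box. ITGA5 holds 1 GC box and ITGA2 holds 4, with 42.6% of 250-base windows holding at least 1 and 32.0% CCAAT. The AP-1 letters TGANTCA were found in none of the 3 stretches, and in 3.50% of 126-base and 6.57% of 250-base windows. The ITGA5 stretch ends in tgagtc, the first letters of that motif, so a match running past its end would not be seen.

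Of the remaining collagens, COL7A1, which forms the anchoring fibrils below epithelia, had 2075 counts in control siRNA and 2858 under ING5 siRNA (log2 ratio 0.48, interval 0.40 to 0.56). COL15A1 and COL18A1 are the multiplexins of basement membrane zones. COL15A1 had 525 and 678 counts (0.38, interval 0.22 to 0.55), and COL18A1 had 32 and 61 (0.94, interval 0.31 to 1.61). COL16A1, a fibril-associated chain, had 36 and 77 counts (1.10, interval 0.52 to 1.73), and COL12A1 lay at 0.16 (0.13 to 0.20). COL17A1, the transmembrane collagen of hemidesmosomes, had 60 and 38 counts (−0.64, interval −1.27 to −0.03), so the low library was ING5 siRNA. COL6A1 lay at −0.05 and COL9A3 at −0.15, with intervals that include 0.

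Of 3 measured laminin beta chains, 2 were lower. LAMB2 had 836 counts in control siRNA and 597 under ING5 siRNA (log2 ratio −0.47, interval −0.62 to −0.32), and LAMB3 had 1532 and 1198 (−0.34, interval −0.45 to −0.23). LAMB1 had 2120 and 2201 counts, with an interval that includes 0 (−0.02 to 0.16). LAMC1, the gamma chain of most laminins, had 3467 and 3972 counts (0.21, interval 0.15 to 0.28), and LAMA1 had 318 and 420 (0.42, interval 0.20 to 0.63). LAMA5 lay at −0.03, LAMA3 at 0.13 and LAMC3 at 0.21, each with an interval that includes 0. LAMB2 and LAMB3 are 2 of the 4 members with an interval wholly below 0, beside COL17A1 and ITGB5, and no laminin was 1.5-fold apart.

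Integrin alpha subunits lay mostly higher. ITGA5 had 2113 counts in control siRNA and 3297 under ING5 siRNA (log2 ratio 0.66, interval 0.58 to 0.74). ITGA2, the alpha subunit of a collagen receptor, had 1125 and 1708 counts (0.62, interval 0.51 to 0.73), while ITGA1, of the other measured collagen receptor, had 1787 and 1977 (0.16, interval 0.07 to 0.25). ITGAV had 1321 and 1602 counts (0.29, interval 0.19 to 0.40). The laminin receptor subunits lay nearer to 0, ITGA6 at 0.12 (interval 0.00 to 0.24, its lower end just above 0) and ITGA3 at −0.09 with an interval that includes 0.

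Among beta subunits ITGB1 had 16358 counts in control siRNA and 18290 under ING5 siRNA (log2 ratio 0.18, interval 0.15 to 0.21). ITGB4, which pairs with ITGA6, had 340 and 425 counts (0.34, interval 0.13 to 0.55), and ITGB8, which pairs with ITGAV to activate TGF-beta, had 868 and 1060 (0.30, interval 0.17 to 0.44). ITGB5 had 1508 and 1353 counts (−0.14, interval −0.25 to −0.03). The RPKM of ITGB1 was 8.52 times that of ITGA5 in control siRNA and 6.10 times under ING5 siRNA. ITGB2 and ITGAE, leukocyte integrin subunits, had intervals that include 0.

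**Figure D3:**
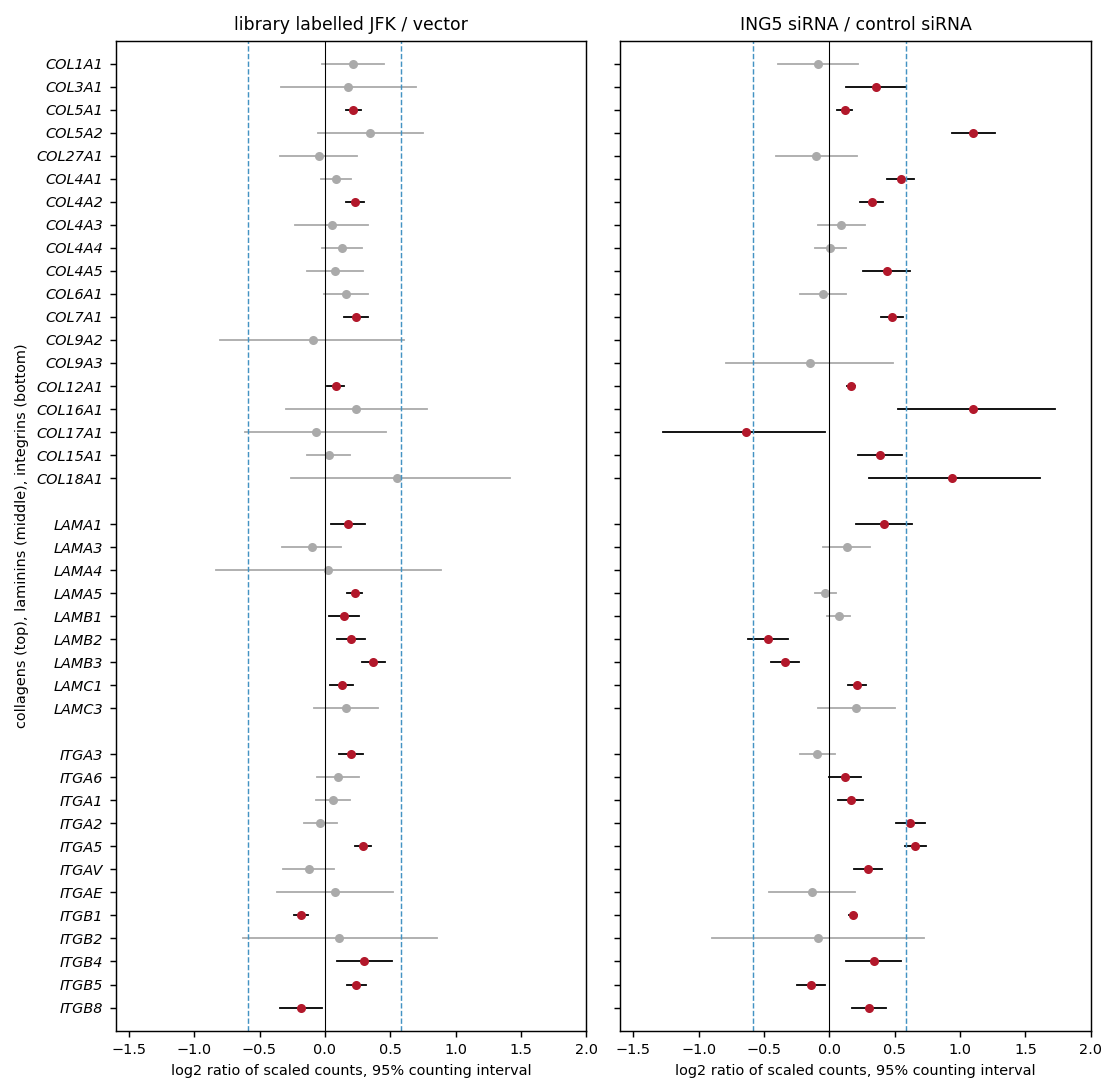
Log2 ratio of scaled counts with its 95% counting interval for each measured member, library labelled JFK over vector (left) and ING5 siRNA over control siRNA (right). Red points have intervals that exclude 0 and dashed lines mark 1.5-fold. No member passes 1.5-fold on the left, and COL5A2, COL16A1, COL18A1, ITGA5 and ITGA2 pass it upward and COL17A1 downward on the right.

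Limits of the siRNA pair are its single libraries and the few reads of some members. With a mean of at least 100 counts required, 3 of 33 members (COL5A2, ITGA5 and ITGA2) stood at least 1.5-fold higher and 0 lower. The shares of all genes at that setting were not counted. With 5 counts added in place of 0.5 COL17A1 lay at −0.58, short of 1.5-fold. Among markers, named after their values were seen, FAP of fibroblasts had 22 and 81 counts and DCN 74 and 37. The 11 fibroblast and stellate markers' summed level was 438.5 CPM in control siRNA and 397 under ING5 siRNA, mostly from FBLN1, with 3436 and 3015 counts. Of 10 endothelial markers 1 was measured, CDH5, with 224 and 87 counts. PECAM1, below that level, had 16 and 21, and the others listed had at most 4. Of 8 basal and squamous epithelial markers 2 were measured and both were lower: SFN had 1262 and 830 counts (−0.59, interval −0.72 to −0.46) and KRT17, a keratin, 2704 and 2299 (−0.22, interval −0.30 to −0.14). Members of epithelial attachment went both ways. LAMB3 and COL17A1 had intervals below 0, while ITGB4 (0.34) and COL7A1 (0.48) had intervals above 0 and LAMA3 lay at 0.13. The part of the marker genes' cells in the members' values was not tested.

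Between vector and the library labelled JFK, the pair meant to show the effect of the JFK plasmid, 0 of 39 measured members stood apart by 1.5-fold or more in either direction. Of all measured genes 1.5% stood that much higher and 2.07% that much lower. Small differences leaned upward: 31 of 39 members (79.5%) lay above 0, against 50.5% of 12107 genes, and the median log2 ratio was 0.13, against 0.00. Intervals lay wholly above 0 for 14 members (35.9%) and wholly below for 2 (5.13%), against 14.3% and 11.2% of all genes. The median was 610 scaled counts for members and 261 for all genes.

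LAMB3 had the highest log2 ratio among members with an interval above 0, with 1872 counts in vector and 2381 with the JFK label (0.37, interval 0.28 to 0.46). The other laminin beta chains were higher too: LAMB2 had 1372 and 1550 counts (0.20, interval 0.09 to 0.31) and LAMB1 1239 and 1349 (0.15, interval 0.03 to 0.26). LAMA5 had 4207 and 4841 counts (0.23, interval 0.17 to 0.29), LAMA1 886 and 985 (0.18) and LAMC1 1963 and 2110 (0.13). LAMA3, with 335 and 307 counts, was the laminin below 0 (−0.10, interval −0.33 to 0.13). Basal and squamous markers lay higher: all 5 measured of 8 lay above 0, with a median of 0.25. SFN (0.25, interval 0.18 to 0.32) and KRT17 (0.42, interval 0.39 to 0.44) had intervals wholly above 0. Among members of epithelial attachment LAMB3, ITGB4 and COL7A1 had intervals above 0. COL17A1 lay at −0.07 and LAMA3 at −0.10, with intervals that include 0. The markers' summed level was 3350 CPM in vector and 4301 with the JFK label, mostly from KRT17, with expected counts of 20990.11 and 27538.94. The intervals of TP63, DSG3 and DSC3, the other measured markers, include 0. The part of the markers in the members' values was not tested.

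Among integrins ITGA5 had 4095 counts in vector and 4934 with the JFK label (0.29, interval 0.23 to 0.35). ITGB4 had 343 and 416 counts (0.30, interval 0.09 to 0.51), ITGB5 2782 and 3233 (0.24, interval 0.17 to 0.31) and ITGA3 1725 and 1948 (0.20, interval 0.11 to 0.29). The 2 members lower beyond counting error were beta subunits: ITGB1, with 5974 and 5175 counts (−0.18, interval −0.24 to −0.13), and ITGB8, with expected counts of 681.77 and 589.86 (−0.18, interval −0.35 to −0.02). ITGAV had 449 and 405 counts (−0.12, interval −0.32 to 0.07). Collagens with an interval above 0 were COL4A2, with 3099 and 3575 counts (0.23, interval 0.16 to 0.30), COL5A1, with 4351 and 4971 (0.22), COL7A1, with 1744 and 2020 (0.24), and COL12A1, with 4077 and 4242 (0.08, interval 0.02 to 0.14). COL18A1, at 22 and 32 counts, had the highest log2 ratio of all measured members, 0.55, with an interval that includes 0.

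Base composition moved with these values. Over 10971 measured genes with a transcript sequence, the median log2 ratio ran, over 5 equal groups by GC content, from −0.16 in the lowest to 0.16 in the highest (Pearson r across genes 0.43, a description, since genes of a library are not independent). Members are GC-rich, with a median GC content of 55.2% against 48.7%, and 17 of 39 fall in the highest group, where their median was 0.22. All 5 in the lowest group are integrins (ITGB1, ITGB8, ITGAV, ITGA1 and ITGA2), and 1 of them lay above 0, against 18.4% of all genes there. With the median of genes of like GC content subtracted, a setting chosen after seeing the data, the members' median was 0.05. At this setting 27 of 39 members (69.2%) lay above 0, against 49.9% of all genes. Intervals lay wholly above 0 for 8 of 39, against 7.73% of all genes, and below for 1, against 6.95%. The 8 were COL12A1, ITGA1, ITGA5, ITGA6, ITGB5, LAMB1, LAMB3 and LAMC1, and the 1 was ITGB1 at −0.06.

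**Figure D4:**
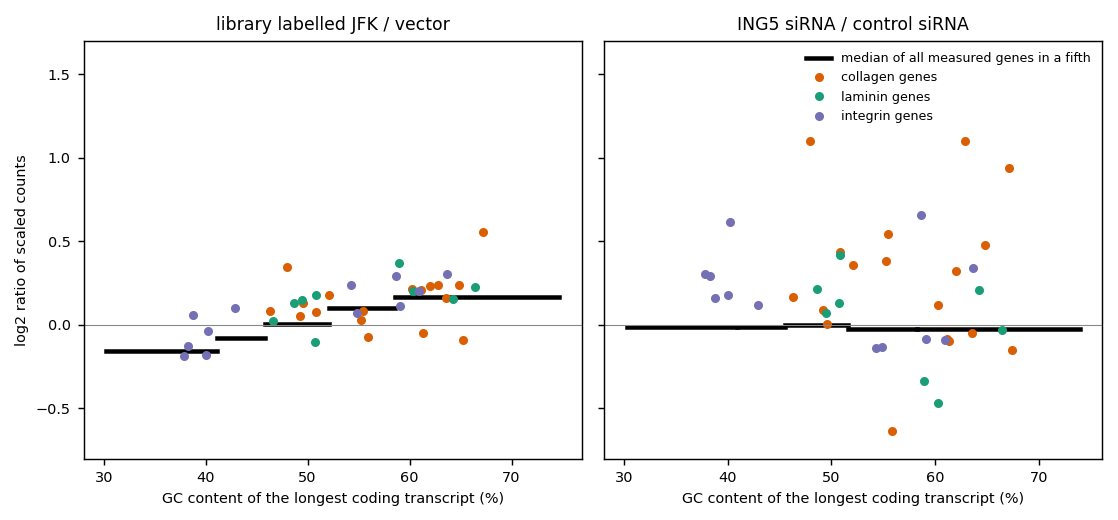
Log2 ratio of each measured member against the GC content of its longest coding transcript, with black bars for the median of all measured genes in each of 5 equal groups by GC content. In the left panel (library labelled JFK over vector) the bars climb from −0.16 to 0.16, and in the right panel (ING5 siRNA over control siRNA) they stay between −0.02 and 0.00.

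In the siRNA pair such a trend was not seen over all genes. Their median lay between −0.02 and 0.00 in each of the 5 GC groups (r 0.00 over 10699 genes). With the same subtraction 21 of 38 members kept an interval above 0, against 20.1% of all genes, and 4 below, against 20.2%. The members' median was 0.15. From the lowest to the highest GC group, members above 0 were 5 of 5, 1 of 1, 9 of 9, 3 of 6 and 8 of 17. The shares of all genes above 0 were 47.6%, 48.2%, 50.3%, 46.7% and 46.9%. The members' median was 0.29 in the lowest group and −0.03 in the highest. The log2 of gene length had a Pearson r of −0.16 with the log2 ratio over 12107 genes of the vector pair, and −0.03 over 11634 of the siRNA pair. Members are long, with a median of 5866 bases against 2960 in the vector table, and 30 of 39 fall in the longest of 5 equal groups, where the median of all genes was −0.06 and that of members 0.14. In the siRNA pair 28 of 38 fall in the longest group, where 23 lay above 0, against 47.8% of all genes. The members' median there was 0.25, against −0.02 for all genes. In the shorter groups 3 of 7, 0 of 2 and 0 of 1 lay above 0, against 45.5%, 48.5% and 48.8% of all genes. The part of length in the members' values was not tested.

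The pairs have separate controls, and 37 members were measured in both. Intervals lay above 0 in both for 8: COL12A1, COL4A2, COL5A1, COL7A1, ITGA5, ITGB4, LAMA1 and LAMC1. None lay below 0 in both. Such overlaps, and intervals on opposite sides of 0, were not counted over all genes. The 8 are therefore not read as a shared response. With GC medians subtracted, COL12A1, ITGA5 and LAMC1 of these 8 kept an interval above 0 in the vector pair and the other 5 did not. ITGB5, LAMB2 and LAMB3 had intervals above 0 in the library labelled JFK and below 0 under ING5 siRNA, and ITGB1 and ITGB8 the reverse. Of these, LAMB2 and ITGB8 had vector pair intervals that include 0 after the subtraction, and ITGB5, LAMB3 and ITGB1 did not. Among the 8, ITGA5 stood 1.23-fold (1.18 to 1.28) higher in the library labelled JFK and 1.58-fold (1.49 to 1.67) higher under ING5 siRNA, and ITGB4 1.23-fold and 1.26-fold. COL5A2, COL4A1 and ITGA2, higher under ING5 siRNA, had intervals that include 0 in the library labelled JFK. A difference between the pairs' ratios was not tested.

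**Figure D5:**
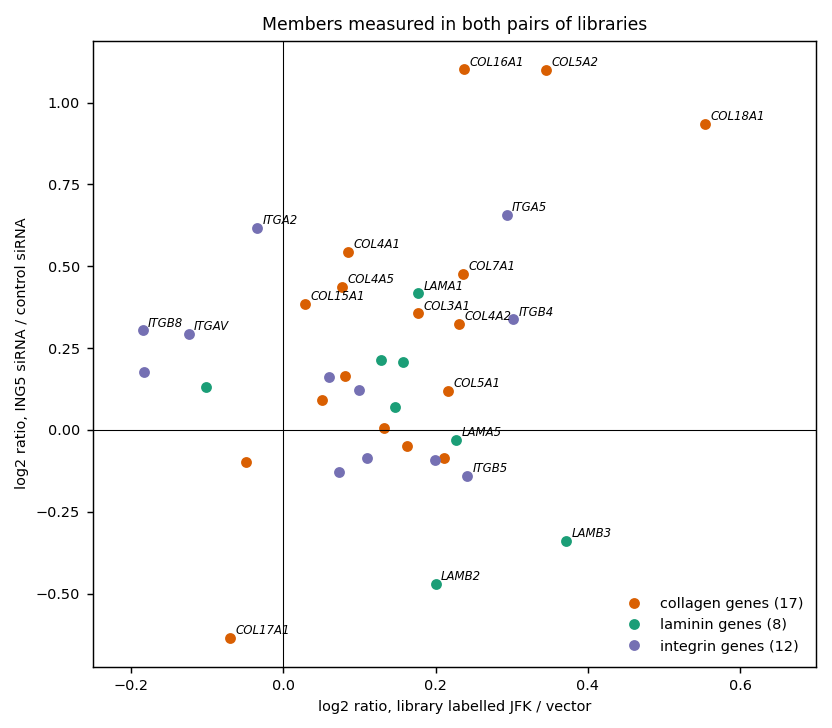
Log2 ratio in the vector pair (horizontal) against that in the siRNA pair (vertical) for the 37 members measured in both, coloured by family, with members far from 0 named. COL16A1, COL5A2 and COL18A1 lie at the top, LAMB2, LAMB3 and COL17A1 at the bottom, and the horizontal axis spans a narrower range than the vertical one.

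The control libraries also differed from each other. In CPM, ITGB1 stood at 832 in vector and 1779 in control siRNA, COL12A1 at 568 and 1637, COL5A2 at 13.4 and 47.8, COL3A1 at 8.64 and 30.2, and ITGAV at 62.5 and 144. In the other direction ITGA5 stood at 570 and 230, ITGB5 at 387 and 164, COL4A2 at 432 and 205, LAMA5 at 586 and 276, and LAMA1 at 123 and 34.6. These tables hold different units and were made separately, expected counts for vector and whole counts for control siRNA, so the values are set side by side only. Here too GC content moved with the ratio: the median log2 ratio of CPM was 0.66 in the lowest GC group of 10931 genes and −0.97 in the highest. In the lowest group 3 of 5 members lay above 0, against 82.8% of all genes, and in the highest 2 of 18, against 10.3%. The part of GC content in the members' values was not tested.

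Other genes of matrix assembly and adhesion were read from lists, with the same shares of all genes as background. Under ING5 siRNA the collagen-modifying and folding list had 0 of 18 measured genes at least 1.5-fold higher and 3 lower, with a median of −0.08. The 3 were SERPINH1, the collagen chaperone HSP47, with 1250 and 804 counts (−0.62), TMEM38B, an endoplasmic reticulum ion channel (−0.78), and the prolyl hydroxylase subunit P4HA3 (−0.85, 35 and 19 counts). PLOD2, the lysyl hydroxylase of collagen telopeptides, had 5561 and 7273 counts (0.40) and was the highest of the list, followed by P3H2 (0.38) and MIA3 (0.34), which helps load collagen for export. Among collagen processing and crosslinking genes 2 of 8 were at least 1.5-fold higher and 0 lower: LOXL4, a lysyl oxidase (0.72), and PXDN, the peroxidase that crosslinks type IV collagen, with 1321 and 1971 counts (0.59).

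Of 13 other matrix proteins measured in the siRNA pair 2 were at least 1.5-fold higher and 0 lower, with a median of 0.21. They were EFEMP2, an elastic fibre protein, with 14 and 32 counts (1.18), and TGFBI, an integrin ligand, with 598 and 892 (0.59). FN1, fibronectin, the ligand of the ITGA5 receptor, had 109 and 157 counts (0.54, interval 0.18 to 0.91), and THBS1 was the lowest at −0.27. Metalloproteinases and their inhibitors had 1 of 7 at least 1.5-fold lower, MMP24 (−0.62), and 0 higher. Non-integrin receptors had none of 13 apart by 1.5-fold, with the laminin receptor BCAM highest at 0.35 and CD9 lowest at −0.38.

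Integrin adaptors and adhesion kinases also had 0 of 35 apart by 1.5-fold under ING5 siRNA. In this list 13 genes lay above 0 and 22 below, 6 intervals were wholly above 0 and 11 wholly below, and the median was −0.12. NEDD9, a docking protein, was highest at 0.37, PTK2, the focal adhesion kinase, lay at 0.23 and FYN, a Src-family kinase, at 0.21. The lowest were PARVA, alpha-parvin, with 570 and 399 counts (−0.50), BCAR1, the p130Cas scaffold (−0.49), and the tensin TNS4 (−0.36). In the library labelled JFK 0 genes of these 6 lists were 1.5-fold apart, and the list medians ran from 0.09 to 0.18. SERPINH1, with 2451 and 1795 counts (−0.43), and BCAR1, with 987 and 674 (−0.53), were the lowest of their lists there, and both are among the lowest 3 of their lists under ING5 siRNA. In the ING5 siRNA table the count of SERPINH1 is 1.02 times, and that of BCAR1 1.03 times, the one implied by its RPKM.

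Members below 20 scaled counts were given no fold. They include the leukocyte integrin genes ITGAL, with 19.35 expected counts in vector and 8.28 with the JFK label, and ITGAX, with 12.8 to 13.5 in that pair and 4 and 8 in the siRNA pair, as well as LAMA2, with 3 to 8 counts. Whether reads were counted by strand is not stated in the labels, and reads of overlapping genes then cannot be told apart. In GENCODE, 51.4% of ITGB7 exon bases overlap ZNF740 on the other strand and 51.6% of those of ITGB3 overlap another gene on its own strand. Among measured members the largest overlap was 6.29% of ITGB2 with ITGB2-AS1, followed by 4.42% of ITGA1 with PELO on the same strand. Not listed were COL2A1, COL6A5, COL9A1, COL19A1, COL23A1, LAMB4, ITGA4, ITGA8, ITGA9 and ITGAM.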

How the data were processed

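Gene tables of 4 libraries were used, 1 per group, grouped by the transfection label. The tools named, per the submitters' processing notes, are STAR, fastp, FastQC and DESeq2, and the builds hg19 and GRCh37. Their versions and roles, and the counter, are not given in the sources used. For vector and JFK the authors deposited expected counts, some of them fractional, beside FPKM values. For the siRNA libraries the authors deposited whole-number counts beside RPKM values. Both statements are per the file headers and the values. Entrez identifiers were matched to RefSeq symbols, and 2 identifiers repeated in the siRNA tables were left out. No member's count departed by over 5% from the one implied by its FPKM or RPKM.

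Library sizes were corrected by TMM (trims of 0.3 on the log ratio and 0.05 on intensity), counts were brought to the pair's mean library size, and 0.5 was added before the log2 ratio; intervals used the unscaled counts rounded to whole numbers. Python 3.11.15, numpy 2.4.6, pandas 2.3.3, scipy 1.17.1 and matplotlib 3.10.9 were used, and the method was tested on simulated data. A count test such as edgeR needs replicates, so none was run. GC content came from the longest coding transcript per symbol in GENCODE, for GRCh38. Every measured member could be named, with counts and intervals for those whose interval excludes 0 or that are among the 12 highest, and the 3 highest and 3 lowest of other lists. The values of 1 member are not reported here. The members and lists were chosen with earlier results of these data known. Marker lists, not all described above, were: endothelial genes, 13.1 to 164 CPM in sum over the libraries; leukocyte genes, 50.5 to 185 CPM; basal and squamous epithelial genes, 349 to 4301 CPM; and hepatocyte genes, 3086 to 5097 CPM, nearly all from CPS1.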

Additional observations from a re-analysis of the deposited data

How the results depend on the processing

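The members' median log2 ratio kept its sign under every alternative run (median-of-ratios and total-count scaling, no filter, a mean of at least 100, 5 counts added, FPKM or RPKM, without genes whose count and FPKM or RPKM differ, whole counts only in the vector pair, and GC medians subtracted). It ran from 0.05 to 0.16 in the vector pair, lowest with GC medians subtracted, and from 0.15 to 0.17 in the siRNA pair. With no filter on low counts, which adds members of a few reads, 6 of 61 were at least 1.5-fold higher and 10 lower in the library labelled JFK. Under ING5 siRNA 18 of 70 were higher and 10 lower. The shares of all genes at this setting were not counted, so these numbers are not read as a result about the members. At a mean of at least 100 the siRNA pair had 3 of 33 members higher and 0 lower, and with 5 added 0 lower. The shares of all genes were not counted at these settings either. Of single members' values, 324 of 339 in the vector pair and 298 of 299 in the siRNA pair stayed within their counting interval, and 14 of the 15 others in the vector pair came from the GC subtraction. No paired analysis was possible because each group has 1 library. Single libraries limit every comparison, and members under 20 counts allow no direction.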
